A study of Mus musculus with 12 samples.

Results

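The genes described here are 32 genes of major histocompatibility complex (MHC) class I presentation and antigen processing, chosen by name from a fixed list of symbols. All 32 were found among 55487 gene identifiers in the deposited count tables, through the mouse GENCODE release M21 annotation. They comprised 10 class I heavy chains (H2-K1, H2-D1, H2-Q4, H2-Q6, H2-Q7, H2-T10, H2-T22, H2-T23, H2-T24 and H2-M3), the light chain B2m, 5 immunoproteasome genes (Psmb8, Psmb9, Psmb10, Psme1 and Psme2), the peptide transporter genes Tap1 and Tap2, and 5 peptide loading genes (Tapbp, Tapbpl, Calr, Canx and Pdia3). The list also held 3 peptidases (Erap1, Lnpep and Tpp2), 5 transcriptional regulators (Nlrc5, Irf1, Rfx5, Rfxap and Rfxank) and Cd274.

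RNA was sequenced from mouse OT-1 CD8+ T cells, whose transgenic T cell receptor recognises an ovalbumin peptide held by the H2-K1 product of the b haplotype, in 12 samples forming 4 groups of 3. Female and Male were spleen cells from each sex, activated with beads carrying antibodies to CD3 and CD28 and with recombinant mouse IL2, and collected after 3 days. WT and KD came from another batch of male cells that were electroporated and kept in culture for 3 days: KD cells were given Cas9 together with guide RNA against the Y-linked histone demethylase gene Kdm5d, whereas the WT control had the guide RNA alone. An effect of Cas9 and an effect of less Kdm5d therefore cannot be told apart between KD and WT, and the ages and the number of mice were not given in the sources used here. All groups were grown with recombinant IL2. If replicates were not separate mice or cultures, the p-values measure only the spread between these samples, which may be technical.

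Class I molecules carry peptides from inside a cell to its surface, where CD8 T cells read them. Proteasomes cut proteins into peptides, and after interferon the catalytic subunits Psmb5, Psmb6 and Psmb7 are replaced by Psmb8, Psmb9 and Psmb10 to form the immunoproteasome, which the activator encoded by Psme1 and Psme2 can cap. The Tap1 and Tap2 proteins move peptides into the endoplasmic reticulum, where tapasin (Tapbp), calreticulin (Calr), calnexin (Canx) and the disulfide isomerase Pdia3 help fold heavy chains with beta-2 microglobulin (B2m) and load them. T cells carry class I themselves, and its genes are induced by Irf1 and by Nlrc5, which acts with the Rfx5, Rfxap and Rfxank complex.

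Total counts lay between 78748647 and 110803318 per sample. Kdm5d was at 50.9 CPM (counts per 1000000 counts of the normalized library) in WT and 22 in KD, and at 0 to 2 counts in the Female libraries against 4584 to 4755 in Male. The summed level of 12 T cell markers was 4526 to 4614 CPM in Female, 4602 to 4691 in Male, 5525 to 5588 in WT and 4983 to 5196 in KD. At an edgeR adjusted p under 0.05, 2 of the 12 were higher and 7 lower in Male, and none higher and 7 lower in KD. Of all genes at a mean log2 CPM no lower than 3, 75% and 56.9% passed. Thy1 rose from 686 CPM in Female to 1011 in Male, while Trbc1 fell from 473 to 360. The 6 B cell markers summed to 3.84 to 3.97 CPM in Female, 3.81 to 4.76 in Male, 5.4 to 6.49 in WT and 4 to 5.23 in KD, mostly from Cd79b, which was called lower in KD (edgeR adjusted p 0.0209), while Ms4a1 had no counts in any sample. The 10 myeloid and dendritic markers together reached at most 1.45 CPM in Female and 1.16 in Male. They summed to 6.79 to 7.36 CPM in WT, mostly from Itgax and Xcr1, and to 2.27 to 3.25 in KD. Only 4 of the 10 were tested there, and 2 of them, Itgax and Xcr1, were called lower in KD. Csf1r (0.405 CPM in WT and 0.415 in KD) and Itgam (0.155 and 0.193) were not called, while Adgre1 and Siglech had no counts in either group. The 4 CD4 and regulatory T cell markers summed to 88.7 to 90.8 CPM in Female and 54.9 to 58.7 in Male, mostly from Zbtb7b, and Cd4 itself had 14 to 19 counts per Female library and none in Male. Foxp3 went the other way, at 2.82 CPM in Female and 4.38 in Male, and fell from 2.65 in WT to 1.46 in KD (edgeR adjusted p 0.0208 and 0.00243). The 3 NK cell markers summed to at most 1.6 CPM in any sample and the 4 erythroid markers to at most 1.37. The 4 stromal markers summed to 29.7 to 46.6 CPM, mostly from Pecam1. The part of these other cells in the results below was not tested, and in bulk RNA a larger share of expressing cells and more RNA per cell cannot be told apart.

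All 32 genes passed the low-count filter in both comparisons. Between Male and Female, 26 of them passed an adjusted p of 0.05 in the edgeR quasi-likelihood test, 21 higher in Male and 5 lower. Of all 20208 genes tested, 49.8% were called, 23.5% higher and 26.3% lower. In the range that holds all 32, a mean log2 CPM no lower than 3, 9743 genes were tested and 75% were called, 34.1% higher and 40.8% lower. The members' share called, 81.2%, was thus near that of genes of such level, while more of them were higher than lower. Groups did not overlap for 29 members, and for 58.3% of all genes and 79.3% of those in that range. The median log2 fold change of the members was 0.30, against 0.011 over all genes tested. Between KD and WT, 25 of the 32 were called, 15 higher and 10 lower in KD, with a median of 0.066 against 0.012 over all genes. Of 20413 genes tested there, 35.1% were called, 16.8% higher and 18.4% lower, and of the 9542 in that range, 56.9% were called, 24.7% higher and 32.2% lower, against 78.1% of the members. Groups did not overlap for 28 members, and for 46.8% and 66.2% of these sets of genes. Counts of all genes in these sentences are background, and nothing was tested over the list.

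Heavy chains differed among themselves in both comparisons. In Male, H2-T24, H2-T22, H2-T23, H2-M3, H2-Q7, H2-T10 and H2-K1 rose, while H2-D1, H2-Q4 and H2-Q6 did not pass the test. In KD, H2-Q4, H2-K1, H2-T10, H2-D1 and H2-Q7 rose, H2-T24, H2-M3, H2-T23 and H2-T22 fell, and H2-Q6 did not pass. The 4 heavy chains that fell in KD had the 4 largest log2 fold changes of the heavy chains in Male, between 0.61 and 1.28.

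H2-K1 (ENSMUSG00000061232, chromosome 17 from 33996017 to 34000347 in GRCm38) encodes the classical molecule that presents the ovalbumin peptide to OT-1 cells. It stood at 922, 901 and 920 CPM in the Female samples and at 1040, 1036 and 1052 in Male. In WT it was at 1010, 1015 and 1016 CPM, and in KD at 1199, 1241 and 1210. Neither pair of groups overlapped: the log2 difference, the fitted log2 fold change, was 0.19 (SE 0.015, edgeR adjusted p 1.96e-06) for Male against Female and 0.26 (SE 0.016, edgeR adjusted p 7.8e-07) for KD against WT.

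H2-D1, the other classical heavy chain of this haplotype, was at 1291, 1254 and 1262 CPM in Female and 1259, 1236 and 1239 in Male. These groups overlapped, with a log2 difference of -0.028 (SE 0.015, edgeR adjusted p 0.155). It was higher in KD, at 1313, 1350 and 1332 CPM against 1213, 1242 and 1226 in WT, a log2 difference of 0.12 (SE 0.015, edgeR adjusted p 0.000193). The ratio of H2-K1 to H2-D1 counts within a sample, which was not tested, was 0.714 to 0.729 in Female and 0.826 to 0.85 in Male, and 0.817 to 0.833 in WT and 0.908 to 0.92 in KD, without overlap in either table.

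H2-T24, a nonclassical heavy chain gene at 36005695 to 36020560 on chromosome 17, moved the most of all members in each comparison. It was at 16.8, 16.2 and 16.8 CPM in Female and 41.5, 40.9 and 39.0 in Male, a 2.44-fold difference (log2 fold change 1.28, SE 0.041, edgeR adjusted p 2.63e-09). WT samples held 27.3, 26.4 and 25.9 CPM and KD samples 13.9, 14.7 and 13.4, so that KD was at 0.528 of WT (log2 fold change -0.92, SE 0.049, edgeR adjusted p 3.35e-07). The KD values thus lay below those of all other groups, across tables that were normalized separately.

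H2-T23 encodes Qa-1, the ligand of the inhibitory receptor pair of CD94 with NKG2A. Female samples were at 110, 112 and 106 CPM and Male at 173, 176 and 168. WT samples were at 133, 134 and 139 CPM and KD at 117, 116 and 118, without overlap. The log2 fold changes were 0.65 (SE 0.028) and -0.21 (SE 0.026), with edgeR adjusted p of 2.51e-08 and 0.000122. H2-M3, which presents peptides that begin with formyl-methionine, had log2 fold changes of 0.61 and -0.28 (edgeR adjusted p 1.5e-06 and 0.00445).

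H2-T22 and H2-T10 encode peptide-free molecules that some gamma delta T cell receptors bind. They share 47.2% of the 31-base transcript subsequences of H2-T22, so reads could be split between them, and their own changes are uncertain. H2-T22 had log2 fold changes of 0.73 and -0.12 and H2-T10 of 0.29 and 0.25, for Male and for KD. Their summed level, which does not depend on that split, was 126 to 135 CPM in Female, 203 to 206 in Male, 188 to 191 in WT and 180 to 183 in KD, without overlap within either table. Reads shared with other heavy chains are possible for H2-K1 (22.8% of its subsequences occur in another gene), H2-D1 (26.7%), H2-Q4 (38.4%), H2-Q6 (50.3%), H2-Q7 (39.1%) and H2-T23 (24.5%). The shares for H2-T24 and H2-M3 were 6.43% and 4.62%.

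H2-Q6 and H2-Q7 belong to the Qa-2 group. H2-Q7 had log2 fold changes of 0.30 and 0.10 (edgeR adjusted p 6.54e-07 and 0.00179), H2-Q4 of 0.055 and 0.34 (0.112 and 3.57e-05), and H2-Q6 of -0.040 and -0.048 (0.27 and 0.072), in the same order. H2-Q4 was called in Male with a filter at a mean log2 CPM of 1 (adjusted p 0.0198), and H2-Q6 was called lower in KD by DESeq2 (-0.052, adjusted p 0.0417). Summed over the 10 heavy chains, levels were 3228 to 3326 CPM in Female and 3650 to 3676 in Male, a ratio of means of 1.12. They were 3484 to 3529 CPM in WT and 3803 to 3875 in KD, a ratio of 1.09. H2-K1 and H2-D1 made up most of each sum, with ratios of 1.05 and 1.14 on their own. The 4 H2-T genes together had ratios of 1.62 in Male over Female and 0.892 in KD over WT.

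B2m, the invariant light chain, is unique in sequence here, with none of its 31-base subsequences in another gene. It was at 580, 597 and 583 CPM in Female and 794, 801 and 749 in Male, with a log2 difference of 0.41 (SE 0.026, edgeR adjusted p 3.25e-07). WT samples were at 919, 931 and 902 CPM and KD samples at 988, 1039 and 968, with a log2 difference of 0.12 (SE 0.025, edgeR adjusted p 0.00316). Groups did not overlap in either table. Per 1000 exon bases, B2m was the most abundant member in each group (682 CPM per 1000 bases in Female, 909 in Male, 1067 in WT and 1161 in KD). H2-D1 and H2-K1 followed in Female, at 492 and 311 on that scale. H2-T24 was at 7.61 and Rfxap the lowest at 4.88.

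**Figure D1:**
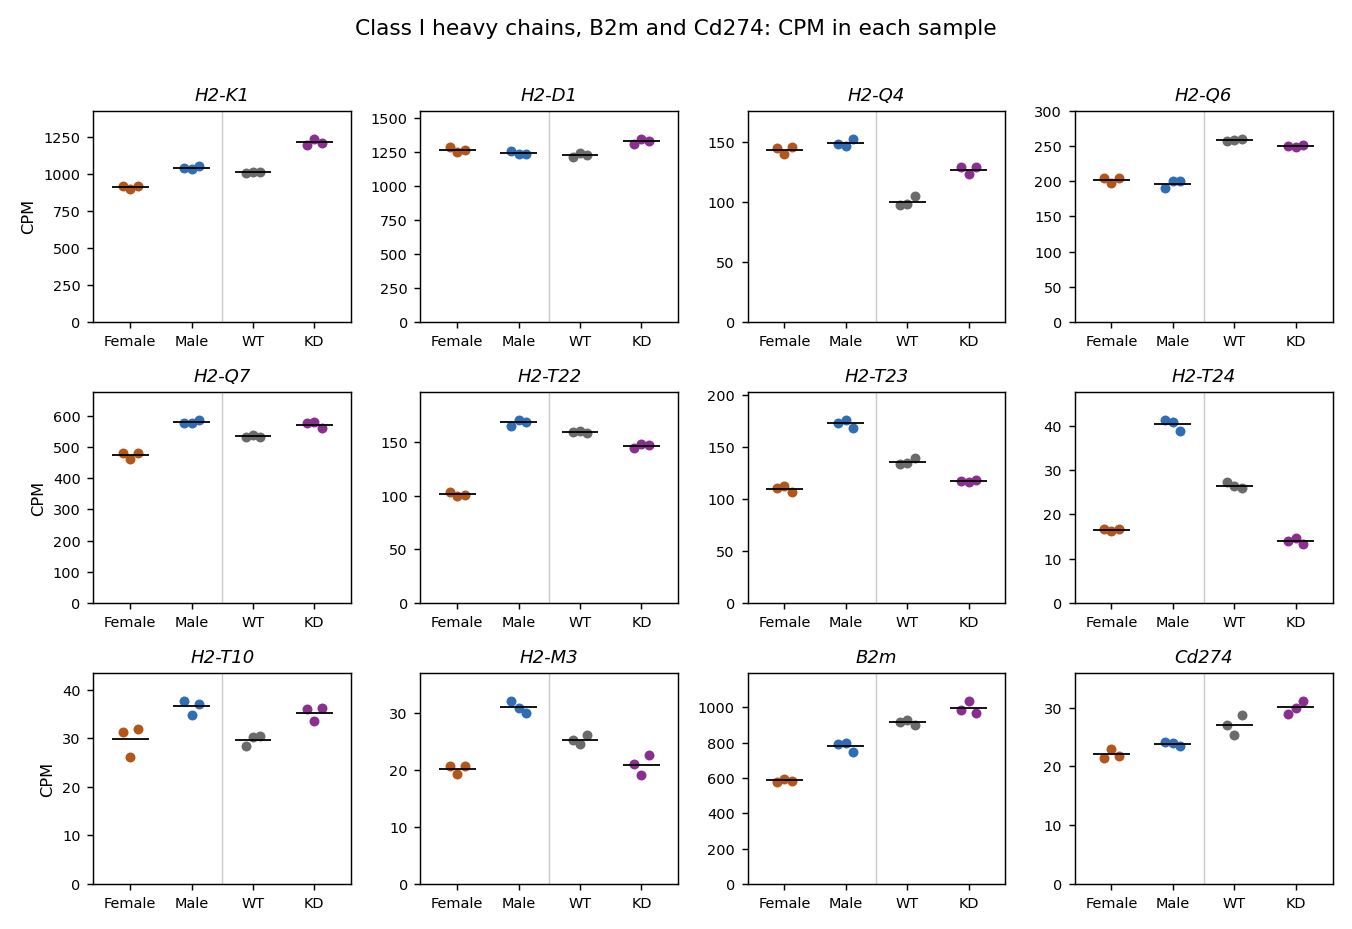
CPM (vertical axis, from 0) of the 10 class I heavy chains, B2m and Cd274 in each of the 12 samples; points are samples, black bars are group means of 3, and the grey line parts the 2 separately normalized tables. H2-T24 rose from about 16.6 to 40.5 CPM between Female and Male and fell from 26.5 to 14.0 between WT and KD, whereas H2-D1 stayed between 1213 and 1350 CPM in all samples.

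Promoter sequence is shown for some class I genes, a class that split into genes that rose and genes that fell in KD. The stretches shown do not represent that split: H2-D1, H2-Q4 and H2-T23 had windows but are not printed. A link between these letters and the direction in KD was not tested. RefSeq windows (GRCm38.p6) from 250 bases before to 50 bases after the transcription start were given for 26 of the 32 members, in 29 windows. H2-T24, H2-T10, Tap2, Tapbpl, Nlrc5 and Rfxap had none. Letters were searched on both strands: for the interferon-stimulated response element GAAA, any 2 bases and GAAA again, for a shorter form of it GAANNGAAA, GGGATTCC for a kappa B site, TGACG for the core of a cyclic AMP response element CCAAT for the box of that name, and TTCNNNGAA for a gamma-activated site, which is not marked below. The stretches below lie before the start, read 5′ to 3′ along the gene, and matches to any of the other letters or their reverse complement are in capitals (ATTGG is CCAAT, and TTTCACTTC is a match to GAANNGAAA, on the other strand).
H2-K1, chr17:34000357-34000462, minus strand: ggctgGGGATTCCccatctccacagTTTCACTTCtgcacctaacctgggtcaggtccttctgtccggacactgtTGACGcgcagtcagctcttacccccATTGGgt
H2-Q7, chr17:35439018-35439121, plus strand: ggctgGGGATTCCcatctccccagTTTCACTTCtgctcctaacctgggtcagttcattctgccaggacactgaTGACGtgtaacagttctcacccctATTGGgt
H2-Q6, chr17:35424673-35424778, plus strand: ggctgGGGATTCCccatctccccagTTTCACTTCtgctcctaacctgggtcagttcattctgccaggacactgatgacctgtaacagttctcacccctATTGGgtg
H2-M3, chr17:37270110-37270207, plus strand: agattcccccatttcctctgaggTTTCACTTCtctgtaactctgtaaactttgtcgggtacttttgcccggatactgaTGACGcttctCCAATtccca
H2-T22, chr17:36042800-36042938, minus strand: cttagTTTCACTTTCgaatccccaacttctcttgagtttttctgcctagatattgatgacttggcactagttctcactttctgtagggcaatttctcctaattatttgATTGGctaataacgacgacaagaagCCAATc
B2m, chr2:122147542-122147642, plus strand: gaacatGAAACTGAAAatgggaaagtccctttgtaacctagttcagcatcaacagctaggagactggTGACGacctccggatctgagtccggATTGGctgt

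In H2-K1 and H2-Q7, and in the window of H2-D1 that is not printed, the kappa B, GAANNGAAA, TGACG and CCAAT matches followed one another in that order. In H2-Q6 the same stretch had no TGACG match. The response element was found in 5 of the 26 members, B2m, Erap1, H2-T22, H2-T23 and Psme1, and in 3.44% of 32851 windows of the same length. GAANNGAAA was found in 7 (H2-D1, H2-K1, H2-M3, H2-Q4, H2-Q6, H2-Q7 and Psme1), against 7.52% of windows, and the matches of these 2 motifs overlapped in Psme1. The kappa B letters were found in H2-D1, H2-K1, H2-Q6, H2-Q7 and Irf1, against 1.06% of windows. TGACG was found in 13 members and 20.8% of windows, and CCAAT in 19 members and 37.4% of windows. TTCNNNGAA was found in H2-M3, Irf1 and Psmb8, 11.5% of the members with a window, against 8.3% of all windows. Heavy chain promoters are related copies, so their matches are not independent.

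Of the 5 immunoproteasome genes, all were called higher in Male, with a median log2 difference of 0.84, and 2 were called higher in KD and none lower. Psme1, the alpha subunit of the proteasome activator PA28, was at 100, 97 and 96.7 CPM in Female and 230, 235 and 226 in Male, a 2.35-fold difference (log2 fold change 1.23, SE 0.025, edgeR adjusted p 1.42e-10). It was at 227 CPM in each WT sample and at 221, 235 and 229 in KD, which overlapped (log2 fold change 0.0093, SE 0.025, edgeR adjusted p 0.821). Its partner Psme2 had log2 fold changes of 0.94 (SE 0.043, edgeR adjusted p 3.79e-08) and 0.014 (SE 0.042, edgeR adjusted p 0.835). The pair lies close together on chromosome 14, from 55578123 to 55581529 and from 55587441 to 55591113 on opposite strands. Psme2 shares 33.5% of its subsequences with Psme2b, so its count is uncertain.

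The catalytic subunits were spread. Psmb10 was at 42.8, 40.0 and 43.7 CPM in Female and 74.7, 76.2 and 75.9 in Male (log2 fold change 0.84, SE 0.035, edgeR adjusted p 2.06e-08). Psmb8 and Psmb9 had smaller values in Male, 0.30 and 0.21 (edgeR adjusted p 1.61e-06 and 3.24e-05). In KD, Psmb8 and Psmb10 were each at 0.16 (edgeR adjusted p 0.000129 and 0.000837), and Psmb9 was at 0.061 (edgeR adjusted p 0.0943). Psmb9 was called in KD with upper-quartile scaling (0.091, adjusted p 0.0182) and also with the filter at a mean log2 CPM of 1.

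Each of these subunits takes the place of a constitutive one, so the 2 were set against each other within samples. In Male all 3 constitutive subunits rose, with log2 fold changes of 0.38 for Psmb5, 0.23 for Psmb6 and 0.64 for Psmb7 (edgeR adjusted p 8.73e-07, 2.58e-05 and 3.32e-08). In KD they fell by 0.096, 0.086 and 0.21 on the log2 scale (edgeR adjusted p 0.0382, 0.0488 and 0.00216). The ratio of Psmb8 to Psmb5 counts overlapped between Female (3.73, 3.91 and 3.65) and Male (3.65, 3.49 and 3.52), while KD (3.87, 3.73 and 3.75) lay above WT (3.21, 3.01 and 3.29). Psmb9 to Psmb6 also overlapped between the sexes, at 1.43 to 1.49 in Female and 1.4 to 1.47 in Male, and did not overlap between WT (1.26 to 1.29) and KD (1.4 to 1.43). Psmb10 to Psmb7 did not overlap in either table, at 0.733 to 0.784 in Female, 0.837 to 0.903 in Male, 1.04 to 1.17 in WT and 1.38 to 1.45 in KD. The exact two-sided permutation p was 0.1 for the 4 comparisons without overlap (0.15 after Benjamini-Hochberg adjustment over the 6), the smallest that 3 against 3 samples allow, and 0.2 and 0.4 for the other two.

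**Figure D2:**
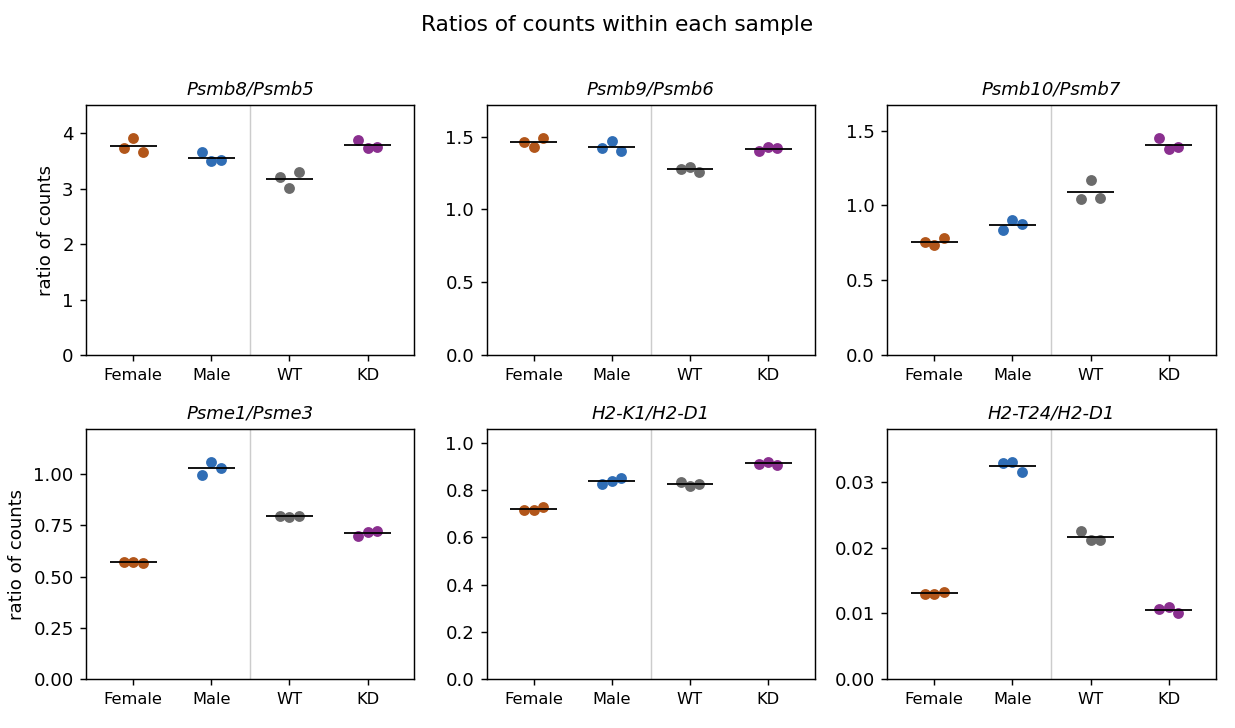
Ratios of raw counts between 2 genes within each sample (vertical axes from 0); points are samples and bars are means of 3. Psmb8/Psmb5 and Psmb9/Psmb6 overlapped between Female and Male and were higher in KD than in WT, and H2-T24/H2-D1 had means of 0.0131 in Female and 0.0325 in Male, and of 0.0216 in WT and 0.0105 in KD.

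The transporter genes moved little in Male. Tap1 was at 440, 442 and 443 CPM in Female and 465, 468 and 472 in Male, a log2 difference of 0.084 (SE 0.016, edgeR adjusted p 0.00146). Tap2 was at 210, 224 and 223 CPM against 225, 224 and 230 (log2 fold change 0.048, SE 0.028, edgeR adjusted p 0.188). In KD, Tap2 rose from 262, 272 and 265 CPM in WT to 296, 303 and 297 (log2 fold change 0.17, SE 0.021, edgeR adjusted p 0.000149), and Tap1 stood at 0.034 (edgeR adjusted p 0.264). Tap1 was called in KD with upper-quartile scaling (0.064, adjusted p 0.0352), and Tap2 in Male with the filter at a mean log2 CPM of 1 (0.076, adjusted p 0.0422). The ratio of Tap1 to Tap2 counts was 1.5 to 1.51 in WT and 1.36 to 1.38 in KD. Tap1 and Psmb9 lie head to head on chromosome 17, Tap1 from 34187553 on the plus strand and Psmb9 ending at 34187764 on the minus strand, and 5.79% of the exon bases of Psmb9 overlap Tap1. The ratio of their counts was 2.64 to 2.78 in WT and 2.6 to 2.67 in KD, which overlapped, and 2.9 to 3.01 in Female and 2.71 to 2.72 in Male, which did not.

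Of the 5 loading factors of the endoplasmic reticulum, 4 rose in Male and 1 fell. Calreticulin (Calr) was at 158, 148 and 157 CPM in Female and 336, 326 and 325 in Male, a log2 difference of 1.09 (SE 0.029, edgeR adjusted p 7.49e-10). Pdia3 had a log2 difference of 1.00, Tapbp of 0.78 and Canx of 0.65 (edgeR adjusted p 1.96e-10, 1.53e-09 and 6.91e-10). Tapbpl, a tapasin relative that edits peptides, went the other way, with a log2 difference of -0.12 (SE 0.024, edgeR adjusted p 0.00135). These chaperones fold many proteins besides class I. Hspa5 and Pdia6 of the same compartment, among the genes of the wider list with the smallest p, rose by 1.04 and 1.21 log2 units (edgeR adjusted p 6.09e-11 and 6.45e-10). P4hb, Uggt1 and Ganab of that list, named after their values were seen, moved less. Their log2 fold changes were 0.21, 0.14 and -0.043 (edgeR adjusted p 3.83e-06, 0.000932 and 0.0757).

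In KD the loading genes moved by 0.17 log2 units at most. Calr rose from 782, 763 and 788 CPM in WT to 865, 849 and 874 (log2 fold change 0.15, SE 0.018, edgeR adjusted p 9.68e-05). Tapbpl, Pdia3 and Canx rose by 0.17, 0.10 and 0.071 (edgeR adjusted p 0.00797, 0.00197 and 0.00947). Outside the members, Hspa5 fell by 0.10 log2 units in KD and Pdia6 was not called, at -0.031 (edgeR adjusted p 0.000614 and 0.367). Tapbp, which encodes tapasin and bridges the transporter to the heavy chain, was at 489, 489 and 493 CPM in WT and 444, 477 and 461 in KD, and was called lower (log2 fold change -0.090, SE 0.025, edgeR adjusted p 0.0163). Its call was lost with upper-quartile scaling (-0.060, edgeR adjusted p 0.085) and without WT replicate 3 (edgeR adjusted p 0.0506). Exons of other genes on the opposite strand overlap 24.9% of its exon bases. They also overlap 29.4% of those of H2-T22, 27.1% of H2-T10, 19.1% of H2-Q4, 18.5% of Tap2, 14.7% of Psmb8, 14.1% of Cd274 and 11.5% of Erap1.

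The 3 peptidases differed from each other. Erap1, which trims peptides inside the endoplasmic reticulum, rose in both comparisons, with log2 fold changes of 0.43 and 0.26 (edgeR adjusted p 2.31e-07 and 2.81e-05). Lnpep, an aminopeptidase of endosomes, was at 817, 878 and 865 CPM in Female and 638, 646 and 646 in Male, and at 652, 663 and 660 in WT and 579, 558 and 581 in KD. It fell in both, by 0.41 and 0.20 log2 units (SE 0.025 and 0.020, edgeR adjusted p 2.86e-07 and 2.28e-05). The cytosolic peptidase Tpp2 rose in Male by 0.16 and fell in KD by 0.13 (edgeR adjusted p 9.94e-05 and 0.00178). Lnpep has the longest exons of the 32 genes, 14144 bases. Over 20162 genes the Spearman correlation of the Male against Female log2 fold change with exon length was -0.22, and over the 32 members -0.35, both descriptions across genes of the same libraries; the part of length in these values was not tested. In KD the values were -0.04 over 20371 genes and -0.089 over the members.

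**Figure D3:**
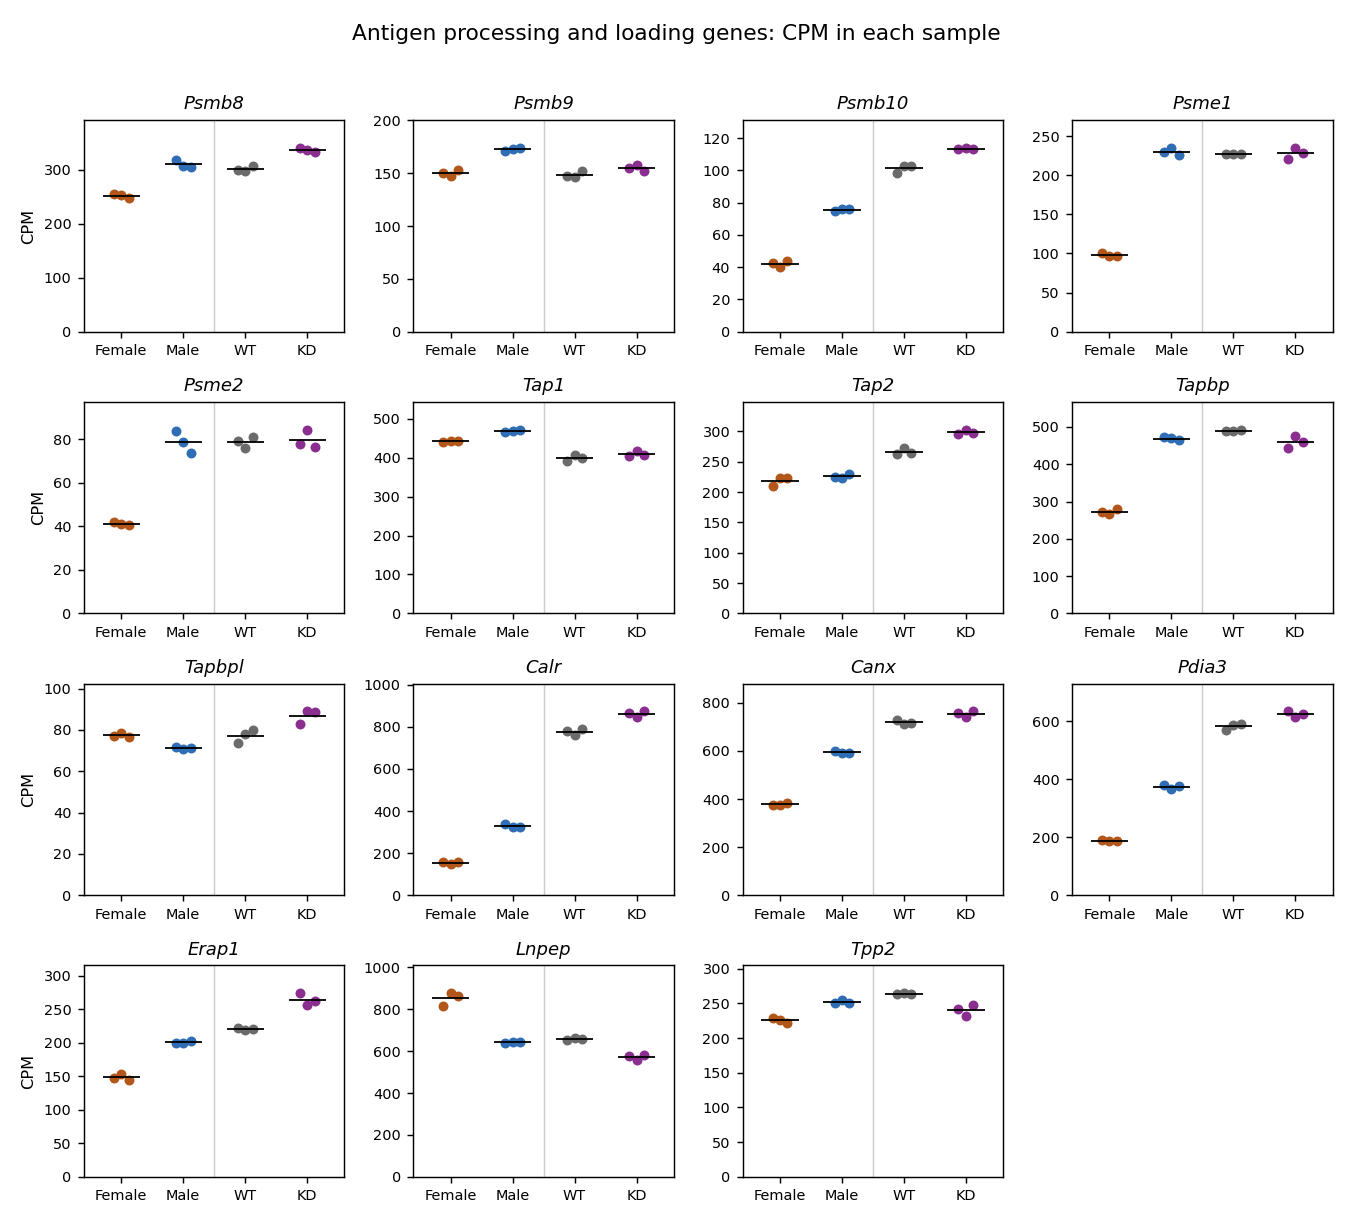
CPM (vertical axis, from 0) of the immunoproteasome, transport, loading and peptidase genes in each of the 12 samples; points are samples, black bars are group means of 3, and the grey line parts the 2 tables. Psme1, Psme2, Calr and Pdia3 lay 1.92-fold to 2.35-fold higher in Male than in Female, while Tap1 and Tap2 lay close together there.

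Among the regulators, Nlrc5, the transactivator of class I promoters, was at 419, 429 and 427 CPM in Female and 537, 541 and 544 in Male (log2 fold change 0.35, SE 0.017, edgeR adjusted p 5.89e-08). In KD it fell, from 651, 664 and 651 CPM in WT to 590, 600 and 594 (log2 fold change -0.14, SE 0.016, edgeR adjusted p 7.65e-05). Irf1, an interferon-induced activator, went the opposite way in both: it was lower in Male, at 122, 127 and 122 CPM against 149, 141 and 146 in Female, and higher in KD, at 216, 217 and 223 against 191, 188 and 184 in WT. Its log2 fold changes were -0.23 (SE 0.029, edgeR adjusted p 6.23e-05) and 0.22 (SE 0.023, edgeR adjusted p 4.04e-05).

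The Rfx complex, which binds the X box of class I and class II promoters, was lower or not called in each comparison. Rfx5 fell in Male, with a log2 difference of -0.20 (SE 0.048, edgeR adjusted p 0.00578). In KD it fell from 31.5, 33.0 and 33.4 CPM to 24.9, 23.1 and 24.3 (log2 fold change -0.44, SE 0.044, edgeR adjusted p 2.82e-05). Rfxap had values of -0.25 and -0.020 (edgeR adjusted p 0.0106 and 0.877) and Rfxank of -0.14 and -0.29 (0.0696 and 0.00456). Without stated use of strand, reads of opposite-strand genes could add to Rfx5 and Rfxank, whose exons they overlap by 26.8% and 33.8%. Cd274, the ligand of the inhibitory receptor PD-1, was at 21.5 to 23 CPM in Female, 23.5 to 24.2 in Male, 25.3 to 28.8 in WT and 28.9 to 31.2 in KD. Its log2 fold changes of 0.11 and 0.15 both missed the threshold (edgeR adjusted p 0.0512 in each). In KD it was called in 5 of the 9 alternative settings, with adjusted p from 0.0216 to 0.091, and in Male in 2 of 9.

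**Figure D4:**
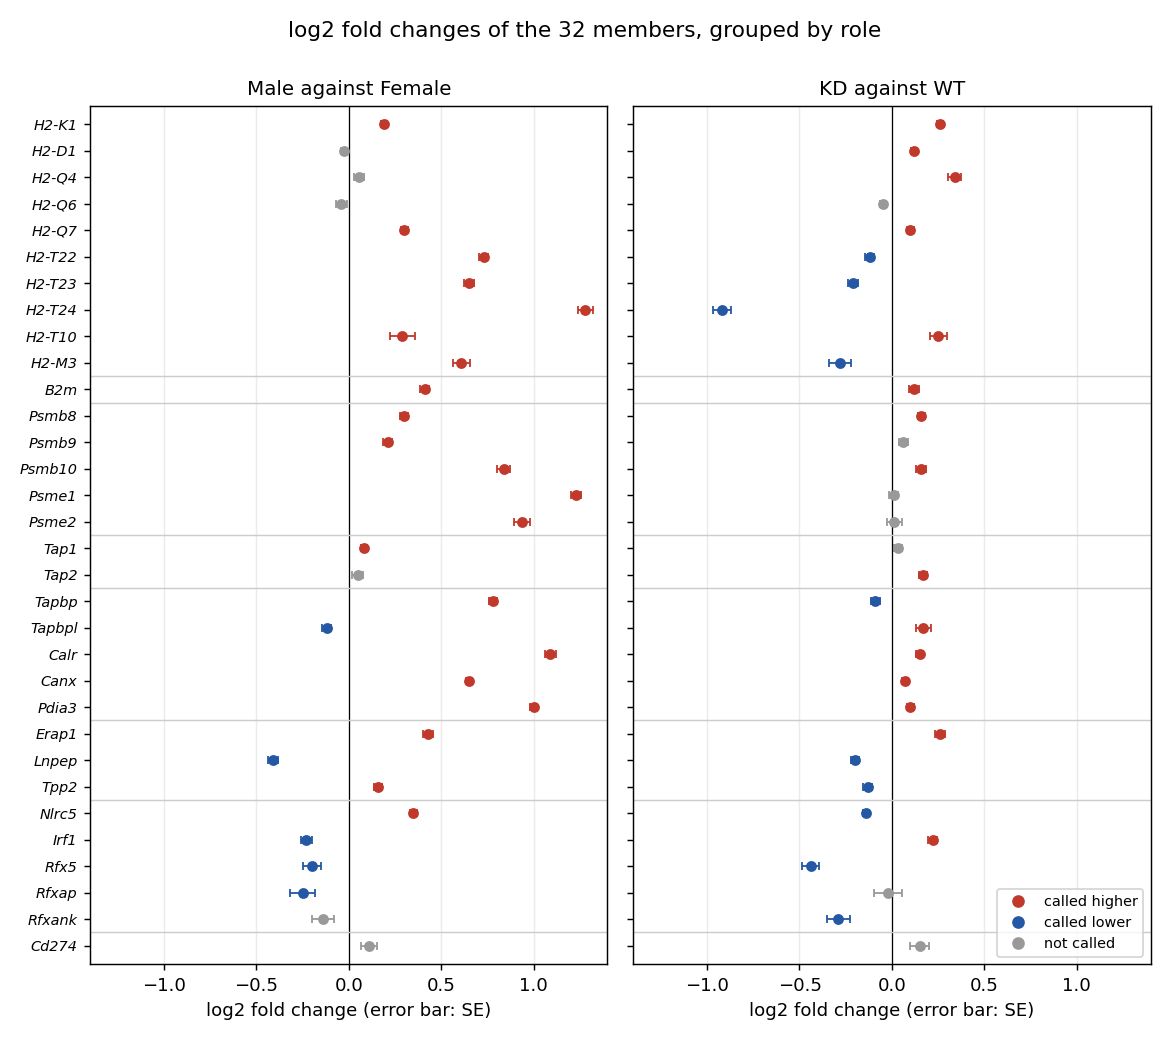
log2 fold changes of the 32 genes (horizontal axis, error bars are SE) for Male against Female on the left and KD against WT on the right, grouped by role; red and blue mark genes called higher and lower at an edgeR adjusted p under 0.05, grey those not called. On the left 21 genes are higher and 5 lower, and on the right 15 are higher and 10 lower, none of these by 1 log2 unit.

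Set side by side, 10 members were called higher in both comparisons (H2-K1, H2-Q7, H2-T10, B2m, Psmb8, Psmb10, Calr, Canx, Pdia3 and Erap1). Another 7 rose in Male and fell in KD (H2-T22, H2-T23, H2-T24, H2-M3, Tapbp, Tpp2 and Nlrc5). Psmb9, Psme1, Psme2 and Tap1 were higher in Male and not called in KD. Tapbpl and Irf1 were lower in Male and higher in KD, and Lnpep and Rfx5 lower in both. The other seven were H2-D1, H2-Q4 and Tap2, called higher in KD and not called in Male, Rfxap and Rfxank, called lower in 1 comparison each, and H2-Q6 and Cd274, not called in either. The 2 comparisons share no samples. Across the 32 members, Spearman's rho between them was -0.08 and Pearson's r -0.19, and across 19529 genes tested in both rho was -0.082, as descriptions across genes of the same libraries. H2-T24 held the extreme place on both axes.

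**Figure D5:**
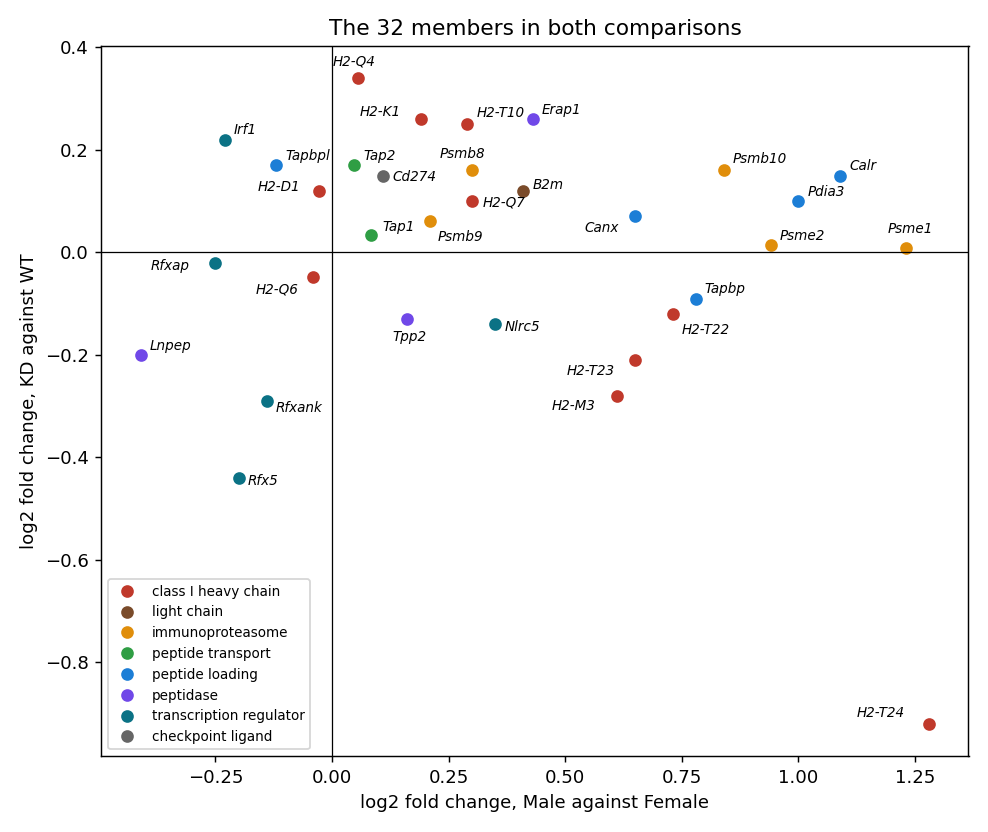
log2 fold change for Male against Female (horizontal) and for KD against WT (vertical) of the 32 genes, coloured by role. H2-T24 sits alone at 1.28 and -0.92, the classical H2-K1 at 0.19 and 0.26, and Psme1 and Psme2 near 0 on the vertical axis.

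Of 13 listed interferon signalling genes, 5 were called higher and 8 lower in Male, and 2 higher and 10 lower in KD, beside 75% and 56.9% of all genes called at a mean log2 CPM no lower than 3, a level that Ifng did not reach. Stat2 and Irf9, which act together in type I interferon signalling, rose in Male by 1.26 and 0.71 and fell in KD by 0.50 and 0.40 log2 units (edgeR adjusted p 1.12e-09 and 1.46e-08, then 3.51e-07 and 2.75e-06). Ifngr1, a chain of the interferon gamma receptor, and the kinases Jak1 and Jak2 fell in KD by 0.64, 0.34 and 0.58 log2 units (edgeR adjusted p 6.1e-09, 4.55e-07 and 1e-06). These 3 also fell in Male, by 0.19, 0.12 and 0.40 log2 units (edgeR adjusted p 1.73e-06, 0.000246 and 3.23e-07). Ifnar1 fell in both, by 0.50 in Male and 0.24 in KD (edgeR adjusted p 3.39e-08 and 2.05e-05). Ifng, chosen after its values were seen, was at 0.399 CPM on average in Female, 2.22 in Male, 6.55 in WT and 4.86 in KD.

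Other genes of the pathway were counted from wider lists. Their counts stand beside the 49.8% and 35.1% of all genes called in Male and in KD. At a mean log2 CPM no lower than 3, which some listed genes did not reach, 75% and 56.9% were called. Of 31 tested processing and loading genes outside the members, 18 were higher and 8 lower in Male, and 6 higher and 13 lower in KD. The shares of these 31 called, 83.9% and 61.3%, were near those of genes at that level. Genes of this list with the smallest p included the cytosolic chaperones Hsp90aa1 and Hspa8 in Male, with values of 1.24 and 0.57 (edgeR adjusted p 2.07e-11 and 2.86e-10). In KD they included Abcb9, a lysosomal peptide transporter related to Tap1, at -0.63 (edgeR adjusted p 9.95e-08). Of 10 tested class I-like genes, 4 were higher and 2 lower in Male. Among the 4 that rose were H2-Q10, Fcgrt and H2-K2, with log2 fold changes of 0.51, 1.01 and 0.39 (edgeR adjusted p 9.06e-06, 0.000287 and 0.000296). The 2 that fell were Cd1d1, which presents lipids, and Mr1, which presents vitamin B metabolites, with log2 fold changes of -0.56 and -0.40 (edgeR adjusted p 0.000232 and 0.000137). In KD, 1 of 11 was higher and 2 were lower: the pseudogene H2-T-ps rose by 0.49, and Fcgrt and H2-K2 fell by 1.20 and 0.27 log2 units. Of 10 listed cofactors of class I promoters, 1 was higher and 7 lower in Male, among them Creb1, which binds TGACG elements, with -0.66 (edgeR adjusted p 1.54e-09). In KD, 2 were higher and 2 lower, the latter being Ep300 and Nfkb1. The 2 higher were Nfya and Creb1, with log2 fold changes of 0.26 and 0.097 (edgeR adjusted p 2.47e-05 and 0.03).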

How the data were processed

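RNA-seq counts of 12 samples were analysed, from total RNA made into stranded libraries after ribosomal depletion, per the labels' protocols. Raw counts for each gene identifier stand in 2 deposited tables of 6 samples each, as whole numbers whose totals differ between samples; bcl2fastq 2.20.0, HISAT2, StringTie, DESeq2 and mm10 are named, without roles, per the submitters' processing notes. The annotation, the use of strand and the treatment of reads that map to several genes were not given in the sources used here, which bears on the heavy chains. GENCODE M21 (GRCm38) matched 55227 of 55487 identifiers and gave positions and exon lengths.

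Each table was fitted alone with edgeR 4.0.16 in R 4.3.3: filterByExpr, TMM, quasi-likelihood test, Benjamini-Hochberg adjustment over all genes, calls at an adjusted p under 0.05. SE is the absolute log2 fold change over the square root of F. The test was tried on simulated data, where the share of false calls was above the nominal threshold, so calls near it are less certain. Groups came from sample titles. Named genes were the 32 members, up to 4 genes with the smallest p of each list, and Psmb5, Psmb6 and Psmb7. One gene that this rule takes is not reported here. Members and lists were chosen with earlier results of these data known. Of 130 listed symbols, 4 had no identifier in the annotation. CPM used TMM-scaled library sizes, and levels in different tables were normalized separately. Alternatives were other scaling factors, other low-count filters, DESeq2 1.42.0, limma-voom (limma 3.58.1), a threshold of 0.01, the replicate block, all 12 samples in one fit, and each replicate left out. RefSeq promoter windows were searched by exact letters.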

Additional observations from a re-analysis of the deposited data

How the results depend on the processing

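The member results were recomputed in 9 other settings and in 6 fits per comparison that left out 1 replicate. In Male against Female, 25 members kept their side of the threshold and direction in all 9 settings, and in KD against WT 26 did. Between 21 and 24 members were higher and 4 to 8 lower in Male, and 15 to 18 higher and 9 to 11 lower in KD. The 8 lower came from fitting all 12 samples together, where H2-D1, H2-Q6 and Rfxank passed too; the cause was not tested. Without one replicate the counts were 21 to 22 and 5 to 6 in Male, and 15 to 16 and 9 to 10 in KD. Rfxap in KD reversed to 0.010 with upper-quartile factors and lay between -0.073 and 0.016 without one replicate. Psme1 (-0.014 to 0.033) and Psme2 (-0.032 to 0.041) also crossed 0 there. The largest shift of the median of all genes from another scaling was 0.030 log2 units, with upper-quartile factors in KD against WT, which moved the split of all calls to 4002 higher and 3279 lower from 3424 and 3747.

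With the replicate number as a block, 21 members were higher and 5 lower in Male, and 16 higher and 10 lower in KD. Same-numbered deviations correlated between -0.075 and 0.031, and those of different numbers between -0.088 and 0.091. With 3 replicates per group, such values cannot show whether same-numbered samples share a mouse or culture. The labels give only a shared number, and the block added Cd274 in KD (0.15). The blocked log2 ratio differences were -0.081, -0.027 and 0.20 in Male and 0.25, 0.15 and 0.37 in KD for Psmb8/Psmb5, Psmb9/Psmb6 and Psmb10/Psmb7, with an exact sign-flip p no lower than 0.25. No ratio changed direction without one replicate.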

Other observations

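Class II presentation genes, which T cells of mice express at low levels or not at all, were measured in the same libraries. Of 11 tested in KD against WT, 7 were called higher and none lower, beside 16.8% and 18.4% of all genes tested. H2-Ab1, the class II beta chain, was at 1.56, 1.79 and 1.53 CPM in WT and 5.85, 4.24 and 4.77 in KD, without overlap, a log2 difference of 1.60 (SE 0.15, edgeR adjusted p 1.68e-05). H2-DMa, a chain of the class II peptide editor, was at 22, 20.2 and 21.8 CPM in WT and 36.6, 37.7 and 34.6 in KD (log2 fold change 0.77, SE 0.049, edgeR adjusted p 1.23e-06). H2-DMb1 and H2-DMb2 had values of 1.34 and 0.98 (edgeR adjusted p 6.07e-05 and 3.35e-05). Ciita, the class II transactivator, Cd74 and H2-Aa were named after their values were seen. Ciita was at 1.41 CPM in WT and 2.46 in KD (log2 fold change 0.80, edgeR adjusted p 0.00968).

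The invariant chain Cd74 was at 1.96 and 1.93 CPM in WT and KD (edgeR adjusted p 0.952), and H2-Aa, the alpha chain that pairs with H2-Ab1, was at 0.137 and 0.176 CPM. The B cell markers summed to 5.40 to 6.49 CPM in WT and 4.00 to 5.23 in KD, and the 10 myeloid and dendritic markers to 6.79 to 7.36 and 2.27 to 3.25. The lower myeloid and dendritic sum in KD came mostly from Itgax (3.57 CPM in WT and 1.19 in KD) and Xcr1 (2.78 and 1.05). The part of such cells in these values was not tested. Between Male and Female, 3 of 10 class II genes were higher and 1 was lower, and H2-Ab1 was at 6.19 and 5.67 CPM (edgeR adjusted p 0.344).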
